A study of Rattus norvegicus with 6 samples.

Results

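Cells answer oxidants and electrophiles through the transcription factor NRF2, encoded by Nfe2l2. In resting cells the adaptor protein KEAP1 holds NRF2 for ubiquitination and degradation. When reactive cysteines of KEAP1 are modified, NRF2 accumulates in the nucleus, pairs with a small MAF protein such as MAFG and binds the antioxidant response element of its target genes. Those targets make glutathione, reduce thioredoxin, repair oxidised peroxiredoxins and break down heme. Because NRF2 is controlled largely through its protein stability, its own mRNA is not a direct measure of its activity. Oligodendrocyte precursor cells (OPCs) are known for a high iron content and a low glutathione content.

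The 9 NRF2 antioxidant response genes described here were chosen by name: the regulators Nfe2l2, Keap1 and Mafg, the heme oxygenase gene Hmox1, the glutathione genes Gclc, Gclm and Gsr, and the thioredoxin-linked genes Txnrd1 and Srxn1. Of the 32883 genes in the table of read counts, 8 of the 9 were found by gene name. Srxn1 carried a clone name in place of a symbol, and it was found through the NCBI gene number in its description. All 9 passed the filter on low counts and were among the 14670 genes tested.

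The libraries were poly-A RNA-seq of OPCs grown from the cortices of newborn (P0) Sprague-Dawley rats. The 3 libraries of the DMSO group were cells given the solvent, and the 3 libraries of the ZJU-37 group were cells given ZJU-37 at 5 µM. ZJU-37 is a small molecule derived from necrostatin-1s that inhibits the kinase activity of RIPK1. The labels give 36 h of exposure for both groups, and the study's methods give a shorter one. Cells of 2 animals were combined for a culture, and OPCs were shaken off mixed glia after an earlier shaking step that the study's methods give for removing microglia. Libraries could still hold other glial cells. The labels do not say whether the 3 libraries of a group came from separate cultures. The study's figure legend for these data counts 3 plate wells, and its methods name 3 biological repeats per group. Each p-value therefore measures only the spread between these libraries.

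Totals ranged from 13935865 to 24097927 counts per library, so 3 counts corresponded to between 0.124 and 0.215 CPM (counts of a gene scaled to a common library total). All 8 OPC markers were detected, and their summed level ranged from 4038 to 6139 CPM. Of these, 4 were higher and 3 were lower with ZJU-37 (Gpr17, Nkx2-2 and Sox10). The 10 oligodendrocyte markers summed to between 10485 and 21228 CPM in the DMSO group and to between 4489 and 9506 CPM in the ZJU-37 group. The 14 microglia markers were all present, at a summed level of 2123 to 4939 CPM. Astrocyte markers reached 932 to 1679 CPM, neuronal markers 231 to 379 CPM, and endothelial and fibroblast markers 31.1 to 92.4 CPM with Cldn5 at 0. In bulk RNA, fewer cells of a type and less RNA per cell cannot be told apart.

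The comparison of ZJU-37 with DMSO asks whether the inhibitor altered the OPC transcriptome, here read for the NRF2 genes. Calls come from a fit without replicate number as a block, unless the block is named. The blocked fit called 2 of the 9 higher (Gclm and Txnrd1) and 0 lower, where it called 32.1% of all tested genes. Gclm, the modifier subunit of the enzyme that limits glutathione synthesis, was the 1 gene of the 9 that rose, by 1.37-fold in mean CPM. Of the 9, 0 fell (edgeR, DESeq2 and limma-voom alike, and 0 at an unadjusted p under 0.05), and 8 did not pass. Among all tested genes, 15.0% were called in either direction (2201 of 14670), 9.43% higher and 5.58% lower, so a single call among 9 genes was near the background. The median log2 fold change of the 9 genes was -0.03, equal to that of all tested genes at -0.03, with 4 positive and 5 negative values. In 3 of the 9 genes (Keap1, Gclm and Txnrd1) the groups did not overlap in CPM, against 35.2% of all tested genes.

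**Figure D1:**
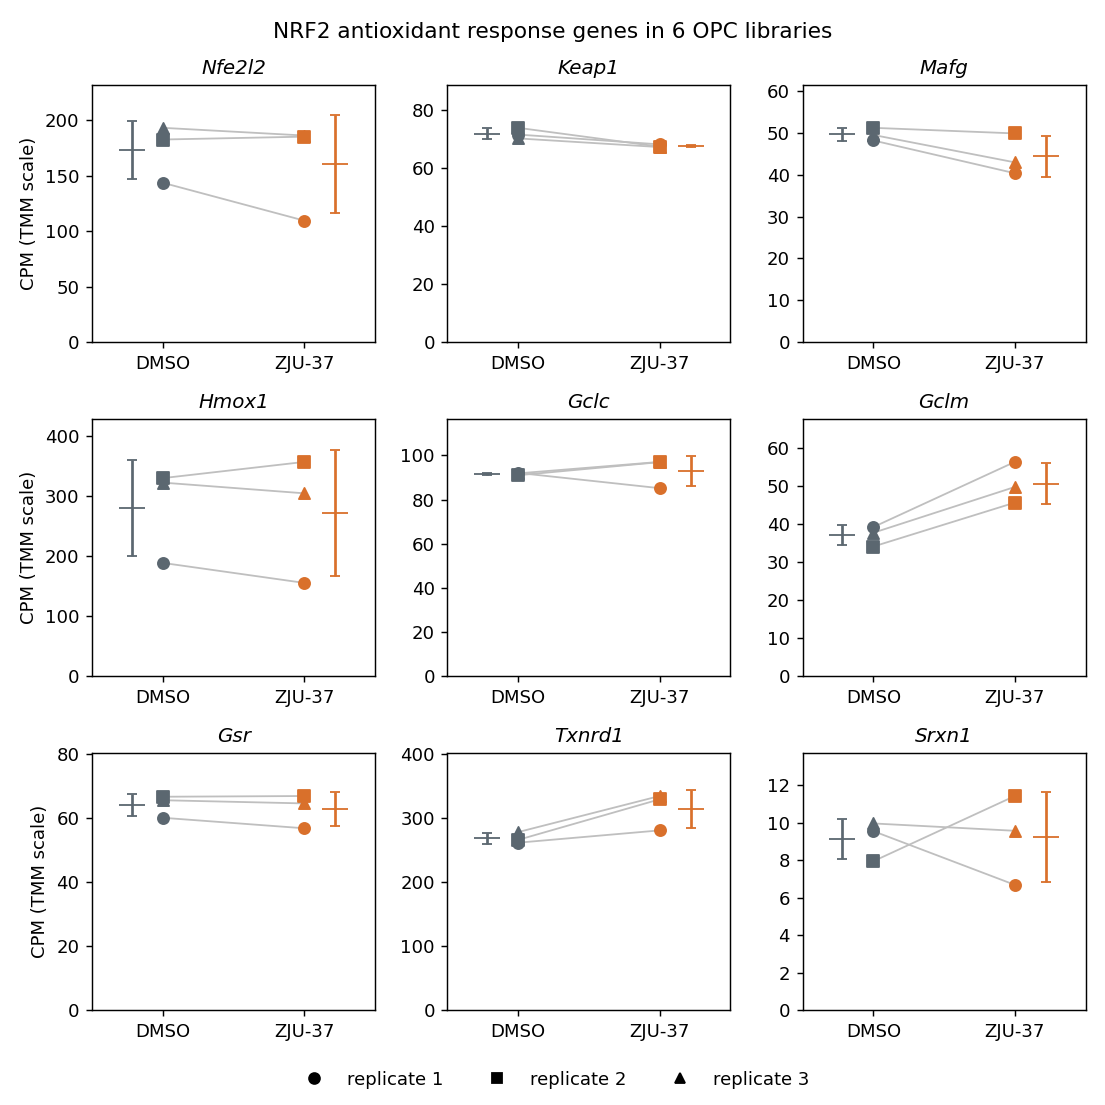
Each panel plots 1 gene in CPM (vertical axis, from 0, scaled by library with TMM factors) in the 3 DMSO and 3 ZJU-37 libraries, with marker shape for the replicate number, grey lines joining equal numbers, and the mean with its SD beside the points. Gclm separated the groups, with 34.2 to 39.3 CPM in DMSO and 45.7 to 56.4 CPM in ZJU-37, while Hmox1 and Nfe2l2 overlapped and were lowest in replicate 1 of both groups.

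Values are given below in the order of replicates 1, 2 and 3. Of the regulators, Nfe2l2 (ENSRNOG00000001548, chromosome 3, 62497571 to 62524996, minus strand) measured 143.7, 182.7 and 193.3 CPM with DMSO and 109.6, 185.3 and 186.3 CPM with ZJU-37. Replicate 1 was the lowest library of each group, and the groups overlapped. The mean was 173 ± 26.1 CPM (SD, n = 3) in DMSO and 160 ± 44.0 CPM (SD, n = 3) in ZJU-37. Its log2 fold change of -0.11 (SE 0.22, edgeR quasi-likelihood test, adjusted p = 0.793) had a 95% interval from -0.65 to 0.43. In this fit without a block, changes of Nfe2l2 mRNA within that interval could not be told apart. With replicate number as a block the log2 fold change was -0.14, with a 95% interval from -0.32 to 0.05 (edgeR adjusted p = 0.238).

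Keap1 (ENSRNOG00000020878, chromosome 8, 22250518 to 22259779, minus strand), which encodes the adaptor that hands NRF2 to a ubiquitin ligase, varied little between libraries. Levels were 71.7, 74.0 and 70.3 CPM in DMSO and 68.3, 67.5 and 67.4 CPM in ZJU-37. Every ZJU-37 library lay below every DMSO library, but by little. A log2 fold change of -0.09 (SE 0.05, edgeR adjusted p = 0.337) did not pass.

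Mafg (ENSRNOG00000036697, chromosome 10, 109806159 to 109811323, minus strand) encodes a small MAF protein that pairs with NRF2 on DNA. It measured 48.2, 51.2 and 49.5 CPM in DMSO and 40.4, 49.9 and 43.0 CPM in ZJU-37. ZJU-37 replicates 1 and 3 lay below all DMSO libraries and ZJU-37 replicate 2 lay among them. Its log2 fold change of -0.16 (SE 0.09, edgeR adjusted p = 0.308) was the lowest of the 9 and did not pass.

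Hmox1 (ENSRNOG00000014117, chromosome 19, 14508616 to 14515456, plus strand) encodes heme oxygenase 1, which opens the heme ring and releases iron, carbon monoxide and biliverdin. It measured 188.8, 330.0 and 322.5 CPM in DMSO and 155.5, 356.9 and 304.7 CPM in ZJU-37. Replicate 1 stood well below the other two libraries in both groups, and the groups overlapped throughout. The group means were 280 ± 79.4 and 272 ± 105 CPM (SD, n = 3 each), with a log2 fold change of -0.04 (SE 0.34, edgeR adjusted p = 0.955). The 95% interval of this fit without a block, -0.87 to 0.79, was the widest of the 9 genes. With the block the interval of Hmox1 was -0.25 to 0.09.

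Glutathione is joined from glutamate and cysteine by an enzyme with a catalytic subunit, GCLC, and a modifier subunit, GCLM, that raises its efficiency. Gclm (ENSRNOG00000013409, chromosome 2, 225827504 to 225847874, plus strand) measured 39.3, 34.2 and 37.8 CPM in DMSO and 56.4, 45.7 and 49.8 CPM in ZJU-37. All ZJU-37 libraries were above all DMSO libraries, and the ZJU-37 library was the higher in each of the 3 pairs of equal replicate number. Mean levels were 37.1 ± 2.63 CPM in DMSO and 50.6 ± 5.40 CPM in ZJU-37 (SD, n = 3 each). The log2 fold change was 0.45 (SE 0.10, 95% interval 0.21 to 0.69, edgeR adjusted p = 0.0253).

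The call for Gclm was lost in 3 of the 6 fits that left out a library. Without DMSO replicate 2 its adjusted p was 0.0926, without DMSO replicate 3 it was 0.0746 and without ZJU-37 replicate 3 it was 0.0695 (edgeR). It passed without DMSO replicate 1 (adjusted p = 0.0491), without ZJU-37 replicate 1 (0.0351) and without ZJU-37 replicate 2 (0.0206, all edgeR). Its log2 fold change stayed between 0.39 and 0.55 over the 14 alternatives. Over those alternatives the adjusted p ranged from 9.22e-05 to 0.0926. With 3 libraries against 3, the exact permutation test of Gclm alone gave a two-sided p of 0.1, the smallest it allows. The oligodendrocyte marker sum also separated the groups, being lower with ZJU-37, and its part in the Gclm result was not tested.

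Gclc (ENSRNOG00000006302, chromosome 8, 85059051 to 85097468, plus strand), the catalytic partner, measured 92.0, 91.0 and 91.8 CPM in DMSO and 85.1, 96.9 and 97.0 CPM in ZJU-37. ZJU-37 replicate 1 was below the DMSO range and the other two were above it. Between groups the log2 fold change was 0.02 (SE 0.07, edgeR adjusted p = 0.867). Per kilobase of gene length, the ratio of Gclm to Gclc was 0.874, 0.769 and 0.843 in DMSO and 1.36, 0.966 and 1.05 in ZJU-37. The ratio averaged 0.829 ± 0.0540 and 1.13 ± 0.206 (SD, n = 3 each), without overlap, at the smallest two-sided exact permutation p for this design, 0.1. Since this ratio includes the Gclm counts called above, it is not separate evidence.

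Gsr (ENSRNOG00000014915, chromosome 16, 62197617 to 62241361, minus strand) encodes glutathione reductase, which returns oxidised glutathione to its reduced form with NADPH. Its levels were 60.0, 66.6 and 65.5 CPM in DMSO and 56.7, 66.8 and 64.5 CPM in ZJU-37. The groups overlapped, and replicate 1 was the lowest library of each. Gsr had a log2 fold change of -0.03 (SE 0.08, edgeR adjusted p = 0.846).

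Thioredoxin reductase 1, encoded by Txnrd1 (ENSRNOG00000009088, chromosome 7, 26946125 to 26984400, minus strand), keeps cytosolic thioredoxin reduced. It measured 261.3, 265.7 and 277.8 CPM in DMSO and 280.4, 328.8 and 334.0 CPM in ZJU-37. The groups did not overlap, but ZJU-37 replicate 1 lay close to the highest DMSO library. The log2 fold change was 0.23 (SE 0.08), a ratio of means of 1.17, and did not pass (edgeR adjusted p = 0.124).

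The Txnrd1 call depended on how the libraries were combined. With replicate number as a block, the log2 fold change was again 0.23 (SE 0.06) and passed at an edgeR adjusted p of 0.0131. Without ZJU-37 replicate 1 the change was 0.32 (edgeR adjusted p = 0.0264). The block gave 2 higher genes of the 9 (Gclm and Txnrd1) and 0 lower, where it called 32.1% of all tested genes.

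Srxn1 (ENSRNOG00000031167, chromosome 3, 147609095 to 147632801, plus strand) encodes sulfiredoxin 1, which restores overoxidised peroxiredoxins. It was the least abundant of the 9, with 131, 141 and 188 counts in DMSO and 124, 236 and 232 counts in ZJU-37. On the CPM scale these were 9.56, 7.96 and 9.97 in DMSO and 6.70, 11.4 and 9.58 in ZJU-37. The ZJU-37 libraries spanned both the lowest and the highest value, and the groups overlapped. The log2 fold change was 0.01 (SE 0.21, edgeR adjusted p = 0.977).

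**Figure D2:**
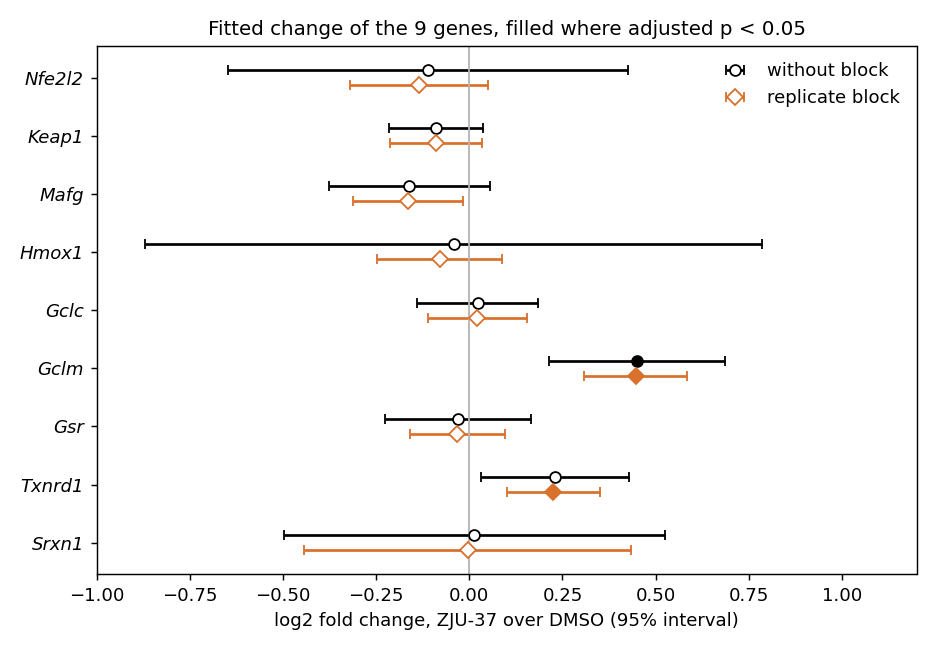
Log2 fold change of ZJU-37 over DMSO (horizontal axis) with its 95% interval for each of the 9 genes, in the fit without a block (circles) and in the blocked fit (diamonds, replicate number), filled where the edgeR adjusted p was under 0.05. Gclm lay at 0.45 in both fits and Txnrd1 at 0.23 in both, while the intervals of Hmox1 narrowed from -0.87 to 0.79 without the block to -0.25 to 0.09 with it.

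Levels can be compared between genes only per length, as RPKM, the CPM per kilobase of gene length. In DMSO, Hmox1 was the most abundant of the 9 at a mean of 179 RPKM, followed by Txnrd1 at 78.2 and Nfe2l2 at 75.1 RPKM. Gsr (32.2), Mafg (31.0), Gclc (30.1), Gclm (24.9) and Keap1 (22.8 RPKM) formed a middle group, and Srxn1 was lowest at 12.5 RPKM. The ranges of neighbours overlapped for Txnrd1 and Nfe2l2, for Gsr and Mafg, for Mafg and Gclc, and for Gclm and Keap1. With ZJU-37 the order was Hmox1 (174), Txnrd1 (91.7), Nfe2l2 (69.5), Gclm (34.1), Gsr (31.5), Gclc (30.5), Mafg (27.8), Keap1 (21.4) and Srxn1 (12.6 RPKM). Gclm thus stood ahead of Gsr, Gclc and Mafg in mean RPKM in the ZJU-37 group, but its range overlapped that of each of them.

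Hmox1 and Nfe2l2 differed between replicate numbers in both groups. The level of Hmox1 in replicate 1 was 0.579 of the mean of replicates 2 and 3 in DMSO and 0.470 of it in ZJU-37. For Nfe2l2 these ratios were 0.765 and 0.590. An edgeR test of the replicate number, chosen after these values were seen, gave adjusted p = 0.000795 for Hmox1 and 0.0106 for Nfe2l2. These were the 2 genes of the 9 that passed, against 15.5% of all tested genes.

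Of the 9 genes, 5 were lower in replicate 1 than in both other libraries in both groups, as were 21.5% of all tested genes. Microglia markers followed the same libraries: they summed to 2888, 4939 and 3965 CPM with DMSO and to 2123, 4362 and 3336 CPM with ZJU-37, in replicate order. Of the 14 microglia markers, 13 were lower in replicate 1 of both groups. The test of replicate number was passed by 13 of them, against 15.5% of all tested genes. OPC and neuron markers went the opposite way: 8 of 8 and 5 of 6 were higher in replicate 1 of both groups. Of these, 5 OPC and 5 neuron markers passed that test. In each pair of equal number the microglia sum was lower with ZJU-37. Without the block, 0 of the 14 microglia markers passed the test of treatment (edgeR, DESeq2 or limma-voom, and 0 at an unadjusted p under 0.05). With the block 7 fell and 0 rose (edgeR). The block called 32.1% of all tested genes in either direction, and 50.4% of those calls were higher. The microglia sum remained after the shaking step against microglia, and the part of microglial RNA in the Hmox1 and Nfe2l2 values was not tested. Over the 6 libraries, the genes most like Nfe2l2 in log2 CPM were Hmox1 and Gsr, each with a Pearson r of 0.96, a description over points that share the low replicate 1 libraries.

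**Figure D3:**
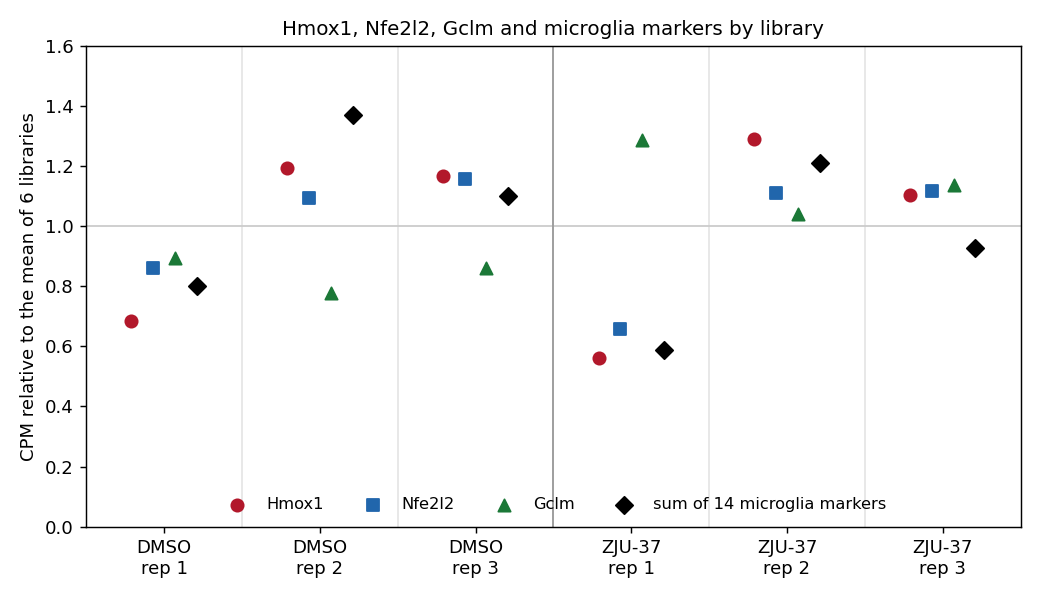
CPM of Hmox1, Nfe2l2, Gclm and the sum of 14 microglia markers in each of the 6 libraries, divided by that quantity's mean over the libraries (vertical axis, no unit). Hmox1, Nfe2l2 and the microglia sum were lowest in replicate 1 of DMSO and of ZJU-37, whereas Gclm was highest in replicate 1 of both groups.

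The antioxidant response element is a short DNA motif near the start of NRF2 target genes. The 300 bases around each RefSeq start site (250 before and 50 after, rat build GRCr8) were searched on both strands for its core, written TGACNNNGC, and for the variant TGAGNNNGC. Windows were given for 7 of the 9 genes, all but Hmox1 and Gsr. Of the 7, 4 held a match (Gclm, Nfe2l2, Srxn1 and 1 of the 2 windows of Txnrd1), as did 28.7% of all genes with a window (7893 of 27457). A match is a description of letters and does not show binding, and elements farther from the start were not searched. The stretches shown are those of Gclm, which rose, of Txnrd1, which rose only in some fits, and of Srxn1, which did not pass in any, each read 5′ to 3′ along the gene's strand with the match in capitals.

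Gclm, chr2:213031943-213031991, plus strand: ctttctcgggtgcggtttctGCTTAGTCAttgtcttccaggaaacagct
Txnrd1, chr7:22755954-22756002, minus strand: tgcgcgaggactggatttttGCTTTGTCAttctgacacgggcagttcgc
Srxn1, chr3:161064674-161064722, plus strand: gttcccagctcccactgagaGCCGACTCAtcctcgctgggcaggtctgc
Srxn1, chr3:161064797-161064825, plus strand: aaactcacccTGAGTCAGCgacccgacgc

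In Gclm and Txnrd1 the core lies on the opposite strand, so the capitals show its reverse complement, with the first base 172 bases upstream of the start in Gclm and 78 bases upstream in Txnrd1. Srxn1 held 3 matches to the variant, of which those 118 bases upstream on the opposite strand and 5 bases upstream on its own strand, crossing the start, are shown. Gclm, which rose, and Srxn1, at a log2 fold change of 0.01, both held matches, and so did Nfe2l2 at -0.11.

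Beyond the 9 genes, 93 further genes of the pathway were listed by role, of which 90 were found and 84 were tested. Of the 84, 6 rose (Slc3a2, Prdx4, Me1, Ugdh, Cbr3 and Aldh3a1), 5 fell (Dpp3, Sesn3, Slc40a1, Idh1 and Cat) and 73 did not pass, with a median log2 fold change of -0.04 (34 positive, 50 negative). Among all tested genes 9.43% rose and 5.58% fell, 15.0% in all, so 11 calls among 84 were not above the background. With the replicate block 12 rose and 16 fell, where it called 32.1% of all tested genes. In 28 of the 84 the groups did not overlap, against 35.2% of all tested genes.

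**Figure D4:**
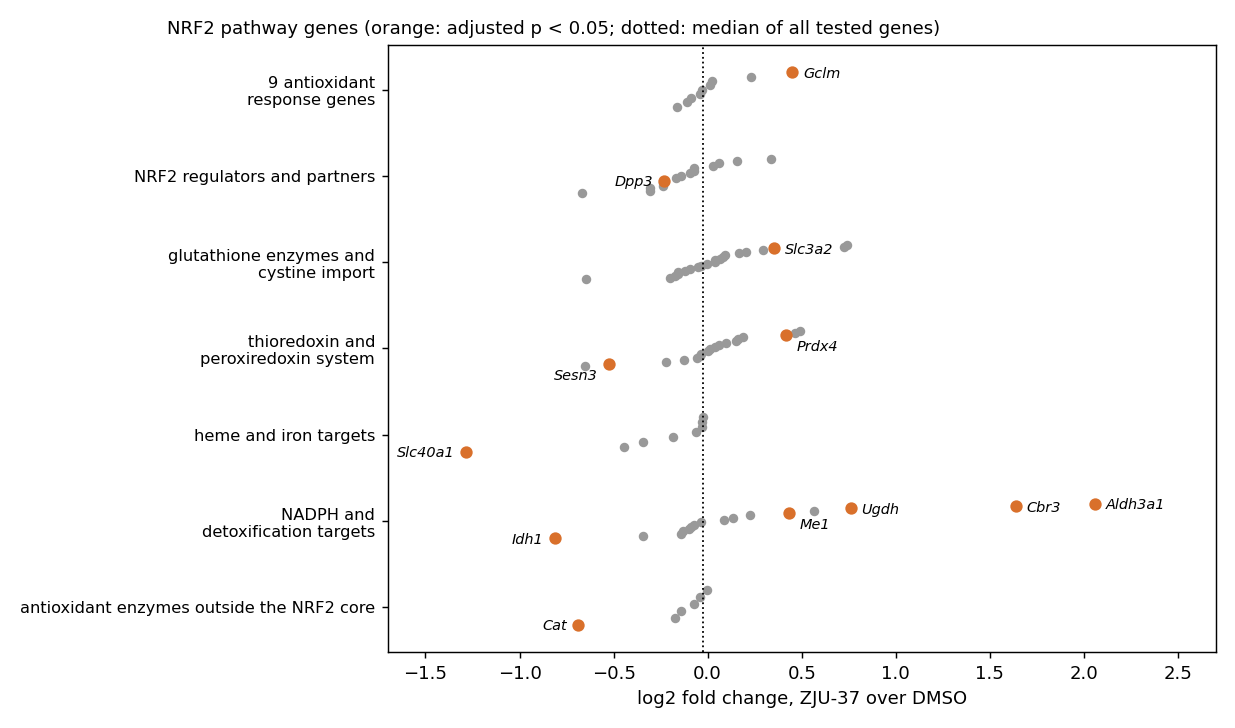
Log2 fold change of ZJU-37 over DMSO (horizontal axis) for every tested gene of the 9 antioxidant response genes and of 6 further lists, orange and named where the edgeR adjusted p was under 0.05, grey otherwise, with a dotted line at the median of all tested genes (-0.03). The values spread to both sides of 0 except among the heme and iron targets and the enzymes outside the core, which were all below 0, and the 3 highest orange points are Aldh3a1 at 2.06, Cbr3 at 1.64 and Ugdh at 0.76, all among NADPH and detoxification targets.

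Among NADPH and detoxification targets, 4 of 16 tested genes rose and 1 fell, with a list median of 0.03. Of all tested genes 9.43% rose and 5.58% fell. In 8 of the 16 the groups did not overlap, against 35.2% of all tested genes. With the replicate block 5 rose, with Ephx1 added (edgeR adjusted p = 0.0659 without the block, 0.000146 with it), and 1 fell. The block called 32.1% of all tested genes. Cbr3, a carbonyl reductase, had 120, 202 and 195 counts in DMSO and 608, 702 and 688 counts in ZJU-37, or 10.2 ± 1.33 and 31.8 ± 2.96 CPM (SD, n = 3 each). Every ZJU-37 library was far above the highest DMSO library, and the log2 fold change was 1.64 (SE 0.13, edgeR adjusted p = 0.000507). Ugdh, which makes UDP-glucuronate, rose from 79.6 ± 2.03 to 135 ± 15.0 CPM (SD, n = 3 each), a log2 fold change of 0.76 (edgeR adjusted p = 0.00196).

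Aldh3a1, an aldehyde dehydrogenase, measured 1.31, 2.88 and 4.19 CPM in DMSO and 7.51, 8.14 and 19.7 CPM in ZJU-37. The groups did not overlap, but ZJU-37 replicate 3 stood far above the other two. Its log2 fold change of 2.06 passed narrowly (edgeR adjusted p = 0.0493), and it did so in only 1 of the 6 fits that left out a library, the one without ZJU-37 replicate 1. It did not pass with no filter on low counts (edgeR adjusted p = 0.0976) or in limma-voom (adjusted p = 0.0734). Me1, malic enzyme 1, which yields NADPH, rose by a log2 fold change of 0.43 (edgeR adjusted p = 0.0356), a call that was lost without DMSO replicate 1 or 2 and without ZJU-37 replicate 2 or 3.

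Idh1, the cytosolic isocitrate dehydrogenase that also yields NADPH, fell by 0.81 on the log2 scale (edgeR adjusted p = 0.0206). That call was lost without DMSO replicate 3 and without ZJU-37 replicate 2 or 3. Nqo1, a quinone reductase widely used as a readout of NRF2 and named here for that use after its value was seen, measured 155.9, 163.9 and 205.1 CPM in DMSO and 141.7, 181.9 and 253.4 CPM in ZJU-37. Its groups overlapped, with a log2 fold change of 0.14 (SE 0.22, edgeR adjusted p = 0.742).

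Of 21 tested glutathione enzymes and cystine importers, 1 rose and 0 fell in edgeR, with a median of 0.04, while 1 fell at an unadjusted p under 0.05, 1 in DESeq2 and 0 in limma-voom. The gene that rose was Slc3a2, the heavy chain of the cystine importer and of other amino acid transporters. It measured 427.7, 469.2 and 469.7 CPM in DMSO and 524.6, 614.4 and 606.0 CPM in ZJU-37, without overlap (log2 fold change 0.35, edgeR adjusted p = 0.0378). The call was lost in 5 of the 6 fits that left out a library, all but the one without ZJU-37 replicate 1. The extremes of the list, Gpx7 at 0.74 and Gsta1 at -0.65, did not pass without the block (edgeR adjusted p = 0.137 and 0.0838). Both did with it (edgeR adjusted p = 0.0350 and 0.00136). With the block 4 genes of the list rose and 2 fell, where it called 32.1% of all tested genes.

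Of 18 tested genes of the thioredoxin and peroxiredoxin system, 1 rose and 1 fell, with a median of 0.03. Prdx4, the peroxiredoxin of the endoplasmic reticulum, was even within groups, at 42.5, 42.2 and 42.8 CPM in DMSO and 59.0, 54.6 and 56.6 CPM in ZJU-37. Its log2 fold change of 0.42 (SE 0.06, edgeR adjusted p = 0.00458) passed without any 1 library. Sesn3, a stress-inducible sestrin, fell by 0.52 on the log2 scale (edgeR adjusted p = 0.0118). The extremes were Glrx, a glutaredoxin, at 0.49 and Txnip, the thioredoxin-binding inhibitor, at -0.65. Neither passed without the block (edgeR adjusted p = 0.0514 and 0.0508), and both did with it (0.000314 and 0.000132). With the block 3 genes of the list rose and 3 fell, where it called 32.1% of all tested genes.

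Among 15 tested regulators and partners of NRF2, 0 rose (edgeR, DESeq2 and limma-voom, and 0 at an unadjusted p under 0.05) and 1 fell, with a median of -0.14. Dpp3, a peptidase that binds KEAP1, fell by 0.23 on the log2 scale (edgeR adjusted p = 0.0349), and the call was lost in each of the 6 fits that left out a library, with library totals as the scaling (adjusted p = 0.0677) and with no filter (adjusted p = 0.0617). Maff at 0.34 and Nfe2l3 at -0.67 were the extremes and did not pass. With the replicate block 6 of the 15 fell and 0 rose. The block called 32.1% of all tested genes in either direction, and 50.4% of those calls were higher.

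Of 8 tested heme and iron genes, 0 rose (edgeR, DESeq2 and limma-voom, and 0 at an unadjusted p under 0.05) and 1 fell, with a median of -0.12. The ferritin gene Fth1 had 0 counts in all 6 libraries and was not tested, so the list does not cover it. Slc40a1, the iron exporter ferroportin, was scarce at 37, 76 and 65 counts in DMSO and 23, 31 and 37 counts in ZJU-37, with DMSO replicate 1 and ZJU-37 replicate 3 equal before scaling. The table has 2 entries named Slc40a1, and the one with more counts was used. Its log2 fold change was -1.29 (SE 0.24, edgeR adjusted p = 0.0147), and the call was lost without DMSO replicate 2 or 3 and without ZJU-37 replicate 3. The highest value of the list was that of Hmox2, the constitutive heme oxygenase, at -0.02, which did not pass. With the replicate block 3 of the 8 fell and 0 rose. The block called 32.1% of all tested genes in either direction, and 50.4% of those calls were higher. Of 6 antioxidant enzymes outside the NRF2 core, Cat, the peroxisomal catalase, was the 1 that fell, from 165 ± 17.5 to 102 ± 4.89 CPM (SD, n = 3 each). The log2 fold change of Cat was -0.69 (edgeR adjusted p = 0.00326) and passed without any 1 library, whereas Sod1 was at -0.00 and did not pass.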

How the data were processed

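Poly-A RNA of 6 OPC libraries was sequenced by Novogene for the authors (paired ends, NEBNext Ultra kit). Reads were aligned and deposited as raw counts per gene, FPKM values calculated by the authors from these counts, and gene lengths. The submitters' processing notes name HISAT2 2.0.5, StringTie 1.3.3b and featureCounts 1.5.0. The genome build and strand setting are not given in the sources used here, so a gene and its antisense partner cannot be told apart. Coordinates of genes are those of the deposited table. Its columns of group means, fold changes and p-values hold the authors' own comparison and were not used, nor were the FPKM values.

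Counts were fitted in edgeR 4.0.16 (R 4.3.3) with filterByExpr, TMM scaling, robust quasi-likelihood dispersion and Benjamini-Hochberg adjustment over all tested genes, and called at an adjusted p of 0.05. The script was tested on simulated data. CPM used TMM-scaled totals. Alternatives were DESeq2 1.42.0 (size factors and test), limma 3.58.1 (voom), other scalings and filters, a replicate block, a threshold of 0.01 and leaving out each library. Pairing was checked: libraries of equal replicate number deviated together (r = 0.39, 0.31 and 0.33), and the labels do not state a pairing. The main fit had no block, so this shared deviation stayed in its spread. Results of the blocked fit, which takes the numbers to pair the groups, are given beside it. No libraries were duplicates. Members and lists were chosen with earlier results of these data known. All members, every called gene of the pathway lists, and the highest and lowest fold change of each list were named. Sequences are from RefSeq.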

Additional observations from a re-analysis of the deposited data

How the results depend on the processing

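Of the 9 genes, Keap1, Gclc and Mafg kept their direction and their side of the threshold in all 14 alternatives. With the replicate block the genes called in all rose from 2201 to 4705 (50.4% of them higher, against 62.8% without it), those of the 9 called higher to 2, and the pathway genes to 12 higher and 16 lower. With the block and without replicate number 1 of both groups, chosen after seeing the data, these were 4885, 2, 16 and 15. The block changed no other call among the 9 than that of Txnrd1. At a threshold of 0.01 the counts were 1053 genes in all, 0 of the 9 higher, and 3 higher and 1 lower pathway genes. Leaving out 1 library gave 1306 to 1927 genes in all, 0 to 2 of the 9 higher, 3 to 6 higher and 2 to 5 lower pathway genes, and a median of the 9 from -0.075 to 0.12.

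Direction turned only in genes that did not pass. Leaving out 1 library gave Srxn1 from -0.14 to 0.21, Hmox1 from -0.26 to 0.25, Nfe2l2 from -0.23 to 0.12 and Gsr from -0.075 to 0.052. Srxn1 was at -0.0040 with the block, and Hmox1 at 0.022 with the block without replicate number 1. The cause was not tested. Scaling by library totals alone moved the median of all genes to 0.00. With 3 libraries a group and no block, the intervals of Hmox1, Nfe2l2 and Srxn1 were wide and included 0. With the block those of Hmox1 (-0.25 to 0.09) and Nfe2l2 (-0.32 to 0.05) were narrower. That of Srxn1 was -0.44 to 0.43, and all still included 0.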
